A study of Mus musculus with 8 samples.

Results

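Myelin-forming oligodendrocytes (MFOL) are the nuclei that the authors' table of nuclei assigns to the class of that name, the middle of 3 oligodendrocyte classes in the postnatal day 14 (P14) mouse visual cortex (VC). There were 319 MFOL among 44021 nuclei, or 0.725%, and all 8 libraries held some. MFOL was the second-smallest of 20 class names in the table. The neighbouring classes, newly formed oligodendrocytes (NFOL) and mature oligodendrocytes (MOL), held 2765 and 1047 nuclei. Members were taken by the class name alone, and no value measured here was used to choose them. The authors' clusters were made from gene expression and named from marker genes. Gene values were not analysed here, so the defining markers of MFOL, Mbp and Opalin, were not examined and the name rests on the authors' call.

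Oligodendrocytes are the cells that wrap axons in myelin, the layered membrane that speeds conduction. They arise from oligodendrocyte precursor cells (OPC), which leave the cell cycle and become NFOL, cells that extend processes and begin to switch on myelin genes. In MFOL the genes of myelin membrane and of its lipids are at their height, and MOL maintain the finished sheath. Mbp encodes myelin basic protein, which compacts the sheath, and Opalin a membrane protein of myelinating oligodendrocytes. In the rodent cortex myelination runs through the weeks after birth, so P14 tissue holds all of these stages side by side.

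Nuclei were freed from frozen VC, those carrying the neuronal protein NeuN were sorted away, and the rest were barcoded in droplets and sequenced. All mice were of the C57BL/6J strain and P14, and the tissue in each of the 8 libraries came from 2 mice alike in genotype and sex. In the VGlut2 model, WT mice carried the floxed VGlut2 allele (VGlut2 f/f) without cre, and cKO mice carried the same allele with cre from the RORα locus, which deletes the vesicular glutamate transporter VGlut2 in thalamic neurons that project to the cortex. Both VGlut2 groups therefore shared the floxed allele. In the Ip3r2 model, KO mice lacked the type 2 IP3 receptor, a channel for calcium release that astrocytes use, in every cell of the body, and WT controls included non-littermates. Each of the 4 groups had 1 male and 1 female library. By the study's methods 1 WT and 1 mutant sample were handled on the same day, and all libraries were prepared and sequenced together. Neither deletion was checked here, since genes were not analysed.

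Libraries held 4767 to 5920 nuclei and 8824112 to 12948023 unique molecular identifiers (UMIs, each a captured RNA molecule). Library names in the table were the sample titles of the labels in all 8 cases. Barcode sequences were shared between libraries for 237 barcodes. Among MFOL 5 nuclei carried such a barcode, and 0 barcodes were MFOL in more than 1 library. MFOL nuclei held between 459 and 9804 UMIs, and 2 of the 319 had under 500 detected genes.

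MFOL made up less than 1% of nuclei in every library. In the VGlut2 model they numbered 47 in the male WT library, which is 0.807% of its nuclei, and 46 in the female WT library, which is 0.858%. The male VGlut2 cKO library held 43 (0.726%) and the female VGlut2 cKO library 32 (0.563%). In the Ip3r2 model the male WT library had the fewest, 19 nuclei or 0.399%, and the female WT library the largest share, 51 nuclei or 0.949%. The Ip3r2 KO libraries held 29 in the male (0.528%) and 52 in the female (0.928%). In the Ip3r2 model the sexes lay apart in both genotypes, and WT and KO overlapped. For counting error, the Wilson 95% interval of the male Ip3r2 WT library, 0.255% to 0.622%, did not reach that of the female Ip3r2 WT library, 0.723% to 1.25%. Such intervals cover counting error only. A share depends on every other class in the sorted sample, so fewer MFOL and more of other nuclei cannot be told apart.

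**Figure D1:**
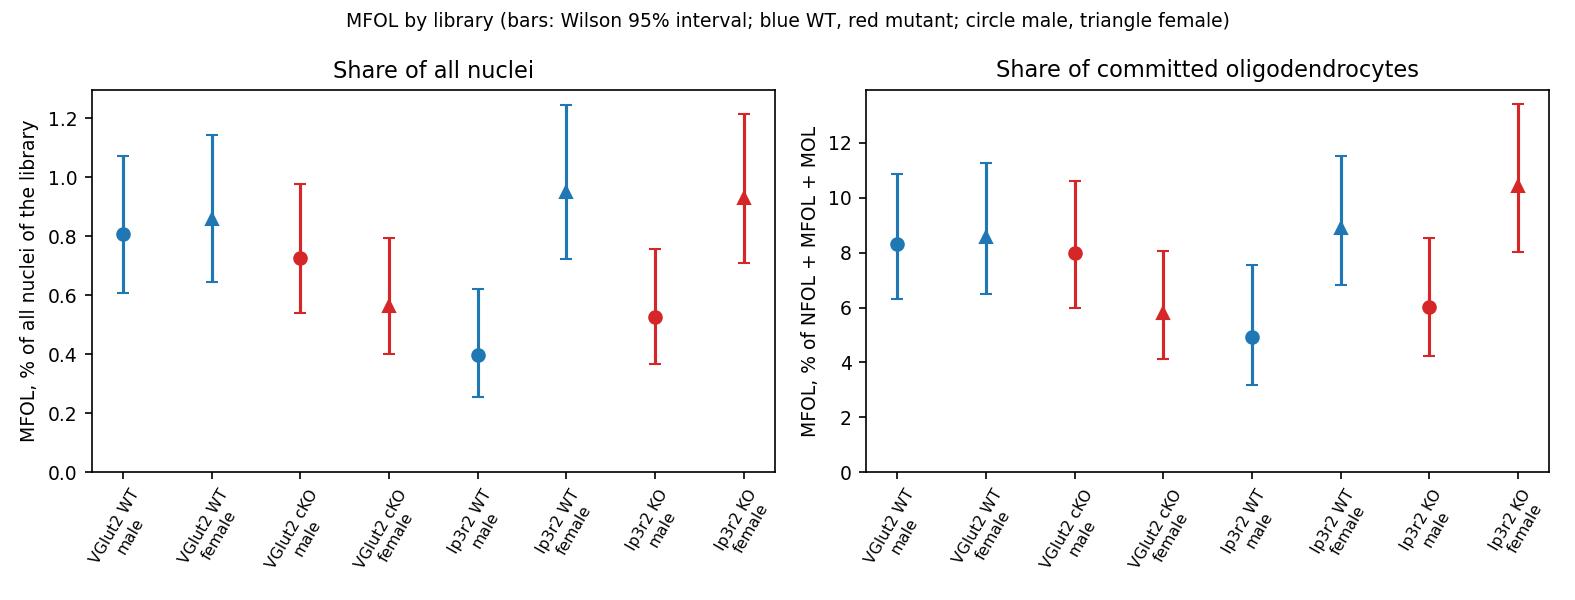
MFOL in each of the 8 libraries as a percentage of all nuclei (left) and of NFOL, MFOL and MOL together (right), with blue for WT, red for mutant, circles for male, triangles for female and bars for Wilson 95% intervals. In the Ip3r2 model both male libraries lie below both female libraries on the left (0.399% and 0.528% against 0.949% and 0.928%), and WT and mutant libraries overlap.

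The share of MFOL was compared between genotypes in each model. The question was whether lost thalamic glutamate release or loss of type 2 IP3 receptors went with a change at the step of myelin formation. Neither comparison passed the test. Both VGlut2 cKO libraries lay below both VGlut2 WT libraries, with means of 0.645% ± 0.115 and 0.833% ± 0.0360 (SD, n = 2 each). On the log2 odds scale the difference was −0.38, with a 95% interval of −1.26 to 0.50 and an adjusted p of 0.980 (limma, Benjamini-Hochberg over 17 classes). Ip3r2 libraries had means of 0.728% ± 0.283 in KO and 0.674% ± 0.389 in WT (SD, n = 2 each). The KO minus WT difference in log2 odds was 0.18, with an interval of −0.70 to 1.06 and an adjusted p of 0.994 (limma). Of the 17 classes 0 were called in either comparison, so percent called was 0%. At an unadjusted p under 0.05 limma gave 0 classes for VGlut2 and 1 for Ip3r2, and edgeR called 0 after adjustment in each. The VGlut2 interval does not exclude a 2-fold fall in MFOL odds, nor the Ip3r2 interval a 2-fold rise.

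Whether the models differed in this respect was tested directly. The VGlut2 change less the Ip3r2 change came to −0.56 in log2 odds (−1.81 to 0.69), with an adjusted p of 0.959 (limma). The Ip3r2 WT libraries differed from the VGlut2 WT libraries by −0.43 (−1.31 to 0.45), with an adjusted p of 0.587. The male Ip3r2 WT library, with 19 MFOL, decided the sign of several of these values. Without it, the Ip3r2 KO minus WT difference was −0.44, the difference between the models 0.059 and that between the WT groups 0.19. Without the female Ip3r2 KO library, the Ip3r2 difference was −0.22.

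The female library held the larger MFOL share in 3 of 4 groups, the VGlut2 cKO being the exception. Its mean was 0.825% ± 0.179 over the 4 female libraries and 0.615% ± 0.186 over the 4 male libraries (SD). With group as a term, the female minus male difference was 0.44 in log2 odds (−0.04 to 0.93), with an unadjusted p of 0.0734 and an adjusted p of 0.416 (limma). Without either Ip3r2 WT library the difference was 0.18 (adjusted p = 0.846), and without either VGlut2 cKO library 0.71 (unadjusted p = 0.0239, adjusted p = 0.229), both by limma. Here too 0 of 17 classes were called (2 at an unadjusted p under 0.05). The sexes' ranges overlapped, 0.399% to 0.807% in male and 0.563% to 0.949% in female libraries. The methods do not say whether the WT and mutant samples handled on the same day were of the same sex. If they were, sex and the day of handling cannot be told apart within a model.

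Within the oligodendrocyte lineage MFOL were a thin layer between larger stages. Per 100 NFOL there were 5.99 MFOL in the male Ip3r2 WT library and 15.03 in the female Ip3r2 KO library, the lowest and highest of the 8, with a mean of 11.5 ± 3.32 (SD, n = 8). MOL outnumbered MFOL in every library, from 1.94-fold in the female Ip3r2 KO to 5.41-fold in the female VGlut2 cKO library. Counted among NFOL, MFOL and MOL together, MFOL were 7.62% ± 1.86, while NFOL were 67.6% ± 7.76 and MOL 24.8% ± 7.03 (SD, n = 8 libraries). The oligodendrocytes past the precursor stage were thus mostly NFOL in every library at P14.

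The MFOL share of these committed cells was 8.30% and 8.58% in the male and female VGlut2 WT libraries. It was 7.99% and 5.80% in the male and female VGlut2 cKO libraries. Ip3r2 WT libraries had 4.92% (male) and 8.90% (female), and Ip3r2 KO libraries 6.03% and 10.4%. Paired with WT by sex and model, the mutant was lower in both VGlut2 pairs, by −0.059 (male) and −0.60 (female) in log2 odds. It was higher in both Ip3r2 pairs, by 0.30 (male) and 0.25 (female). The mean over the 4 pairs was −0.028, with an exact sign-flip p of 0.875, and the smallest p that 4 pairs can give is 0.125. The difference between the models, −0.60 (−2.19 to 0.98), had an adjusted p of 0.993 (limma over the 3 stages, chosen after the data were seen), with 0 of 3 stages called and 0 at an unadjusted p under 0.05. The signs also depended on the denominator. Per NFOL the male VGlut2 pair was 0.16 higher in cKO (log2), and of all nuclei the female Ip3r2 KO share was 0.978-fold the WT share.

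Mutant and WT were also compared by ratios to the stage before and the stage after. Sign flips of 4 pairs cannot give a p under 0.125, so no call was possible for these ratios. Each mean joins the pairs of both models and does not describe either deletion alone. MFOL per NFOL differed between mutant and WT of the same sex by a mean of 0.016 ± 0.46 (log2, SD, n = 4 pairs, exact p = 1). MOL per MFOL differed by 0.20 ± 0.57 (exact p = 0.625), higher in mutants in 3 of 4 pairs. As part of the whole lineage, with OPC and mitotic OPC (M-OPC) counted in, MFOL differed by −0.36 in log2 odds in VGlut2 cKO (−1.52 to 0.79, adjusted p = 0.913) and by 0.25 in Ip3r2 KO (−0.90 to 1.40, adjusted p = 0.870, limma over 5 stages). Without the female VGlut2 cKO library the VGlut2 value was −0.045, and without the male cKO library −0.68. In the fits over the 5 stages percent called was again 0%. Between the 4 Ip3r2 and the 4 VGlut2 libraries, MOL per MFOL differed by −0.52 (log2, exact permutation p = 0.0857), with means of 2.73 ± 0.603 and 3.97 ± 1.12 (SD).

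No correlation of the MFOL share with another class over the 8 libraries passed the test after adjustment. With the MOL share Pearson's r was 0.61 (permutation p = 0.105, adjusted over 4 classes 0.418) and Spearman's rho was 0.40 (permutation p = 0.327). Without the male Ip3r2 WT and male Ip3r2 KO libraries, the farthest from the median MOL share, r was −0.41, so the positive value rested on those libraries. Within the 4 Ip3r2 libraries r was 0.84 and within the 4 VGlut2 libraries −0.25. For NFOL r was −0.11 (rho 0.14), for OPC −0.14 (rho −0.10) and for white matter astrocytes, the astrocytes of the tract rich in myelin, under 0.001 in size (rho −0.31). Their permutation p was 0.789, 0.743 and 0.9999 for r and 0.752, 0.840 and 0.462 for rho, and the adjusted p for r was 0.9999 in each. As shares of the oligodendrocyte lineage, MFOL and OPC had r of −0.82 (permutation p = 0.0217, adjusted over 3 stages 0.0650) and rho of −0.64 (permutation p = 0.0962). Without the male and female VGlut2 cKO libraries r was again −0.82, and within models it was −0.92 (VGlut2) and −0.81 (Ip3r2). OPC made up most of the lineage, and shares of 1 whole are tied to each other. On that denominator r was 0.58 for MOL (rho 0.43) and −0.30 for NFOL (rho −0.29), with permutation p of 0.134 and 0.476 for r and 0.299 and 0.501 for rho. Without the 2 farthest libraries these were −0.012 and −0.59.

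MFOL nuclei held more UMIs than NFOL nuclei and fewer than MOL nuclei. The median MFOL nucleus of the VGlut2 WT libraries held 3258 (male) and 3733.5 (female) UMIs, and that of the VGlut2 cKO libraries 3139 and 4045. The Ip3r2 WT libraries had 4404 (male) and 4215 (female), and the Ip3r2 KO libraries 4820 and 4221.5. The library medians of NFOL ran from 2076 to 3089, below every MFOL median, and those of MOL from 3262 to 5811. For each of the 3 stages every Ip3r2 library had a higher median than every VGlut2 library, and stages were compared within each library. UMIs per nucleus partly reflect RNA content and partly capture and sequencing depth, and these cannot be told apart.

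MFOL held 1.52-fold the UMIs of NFOL of the same library, a mean log2 difference of 0.61 ± 0.08 (SD, n = 8), higher in 8 of 8 libraries. The ratio ran from 1.41 in the female Ip3r2 WT to 1.68 in the female VGlut2 WT library. The exact two-sided sign-flip p was 0.00781, the smallest that 8 libraries can give, and the adjusted p over 8 such comparisons was 0.0104. Against MOL the difference was −0.20 ± 0.15 (0.869-fold, lower in 7 of 8 libraries, exact p = 0.0156). The female VGlut2 WT library was the exception, with a ratio of 1.003. Among all 136 pairs of classes, 84.6% had the same sign of the UMI difference in 8 of 8 libraries, so a consistent sign alone does not single out MFOL. MFOL exceeded 15 of the other 16 classes in every library, all but MOL. Clusters were made from the same molecules, so these tests speak to how steady the differences were across libraries, not to whether the classes are distinct.

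**Figure D2:**
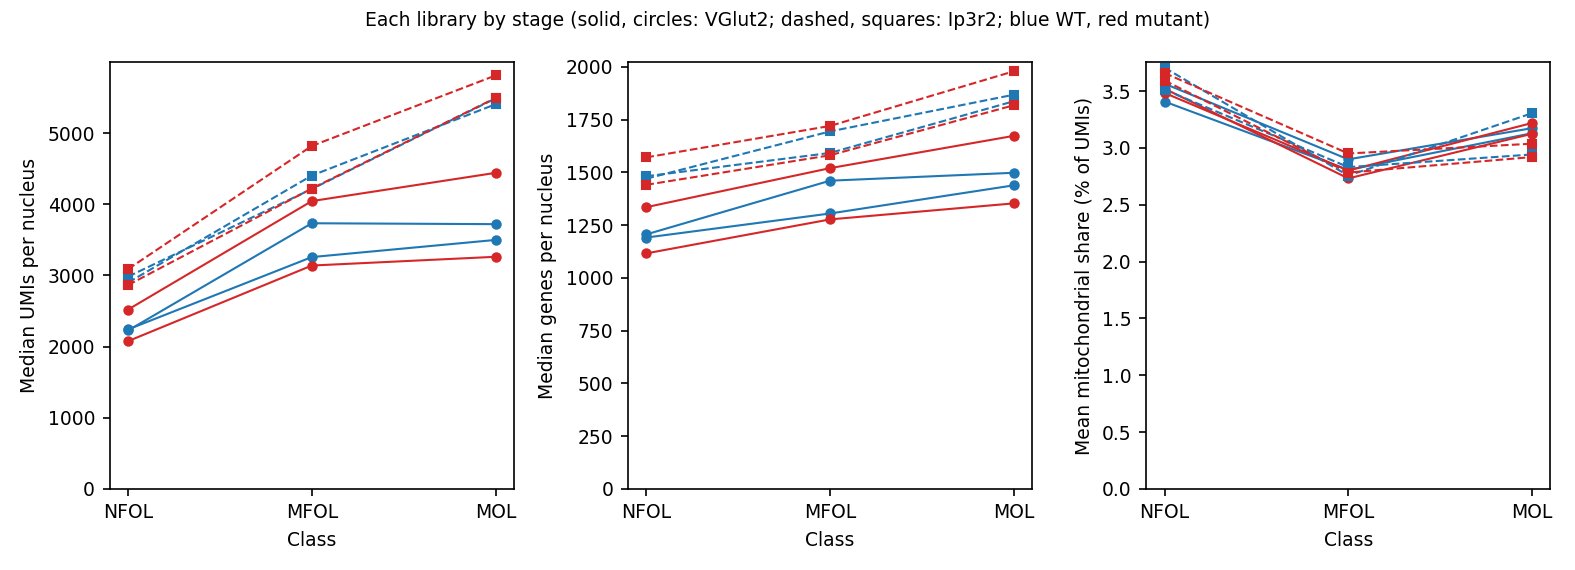
Median UMIs (left), median detected genes (middle) and mean mitochondrial share in percent of UMIs (right) for NFOL, MFOL and MOL, with 1 line per library, solid for VGlut2, dashed for Ip3r2, blue for WT and red for mutant. Every line rises from NFOL to MFOL in UMIs and genes and dips at MFOL in mitochondrial share.

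The nuclei of the stages overlapped. In a random pair from the same library, the MFOL nucleus held more UMIs than the NFOL nucleus in 83.1% of pairs (78.2% to 88.1% over libraries), and more than the MOL nucleus in 39.0% (27.1% to 48.8%). Among themselves the MFOL nuclei of a library varied in UMIs with a coefficient of variation of 32.8% ± 1.52 (SD, n = 8), beside 34.6% for NFOL and 31.4% for MOL. Over all libraries the middle 50% of MFOL lay between 3184.5 and 4926.5 UMIs.

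Genes rose less than molecules. Median detected genes per MFOL nucleus were 1305 and 1460.5 (male and female VGlut2 WT), 1277 and 1520 (VGlut2 cKO), 1694 and 1592 (Ip3r2 WT), and 1720 and 1581 (Ip3r2 KO). That was 1.13-fold the NFOL value of the same library (log2 0.17 ± 0.06, SD, n = 8), higher in 8 of 8 libraries. It was 0.905-fold the MOL value (log2 −0.14 ± 0.06), lower in 8 of 8, and each comparison had an exact p of 0.00781 and an adjusted p of 0.0104. The same sign in all libraries was seen in 80.1% of the class pairs. MFOL had more genes than 12 of the 16 other classes in every library and fewer than 1, MOL.

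At a given number of UMIs an MFOL nucleus showed fewer genes than an NFOL nucleus. The difference, taken from a line of log2 genes on log2 UMIs over the 3 stages of a library, was −0.16 ± 0.03 in log2 genes (0.893-fold, lower in 8 of 8 libraries, exact p = 0.00781, adjusted p = 0.0104). A direct match gave nearly the same. Each MFOL nucleus was set against NFOL nuclei of its library within 5% of its UMI count, a comparison chosen after the data were seen. With 297 of 319 MFOL matched, the difference was −0.14 ± 0.04, lower in 8 of 8. Against MOL the difference from the line was −0.032 ± 0.030 (lower in 7 of 8, exact p = 0.0156), but with 302 MFOL matched it was −0.026 ± 0.041, lower in 5 of 8, with an exact p of 0.125. Among nuclei binned by UMIs, the median MFOL nucleus (3543.5 UMIs) of the fullest MFOL bin had 1387 genes and the median MOL nucleus of that bin (3501 UMIs) 1435.

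**Figure D3:**
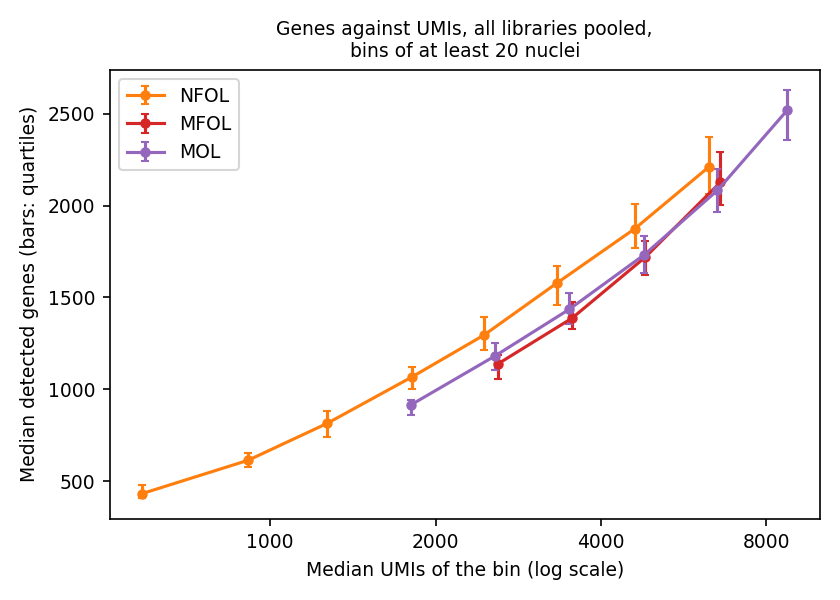
Median detected genes against median UMIs (log scale) for nuclei of all libraries binned by UMIs, for NFOL, MFOL and MOL, with bars at the quartiles and bins of at least 20 nuclei. The NFOL line runs above the others at every shared UMI level, and the MFOL and MOL lines nearly coincide, with 1720 and 1733 genes in the bin with median UMIs of 4820 and 4799.

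The share of mitochondrial RNA was lowest in MFOL. In a nuclear preparation such RNA comes from outside the nucleus, and its share is often read as a mark of cytoplasm carried along. A share also depends on the UMI total, which was higher in MFOL than in NFOL. The number of mitochondrial molecules per nucleus was not compared, so a low share need not mean fewer of them. The mean share in MFOL was 2.81% and 2.90% in the male and female VGlut2 WT libraries and 2.80% and 2.73% in VGlut2 cKO. It was 2.76% and 2.83% in Ip3r2 WT and 2.95% and 2.78% in Ip3r2 KO, so all 8 values fell within a narrow band. Such a band was not particular to MFOL, since OPC ran from 3.17% to 3.36% over the 8 libraries. NFOL ranged from 3.41% to 3.71% and MOL from 2.92% to 3.30%. The lowest MOL value lay below the highest MFOL value, but in a different library.

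Within libraries MFOL lay below NFOL by a mean of −0.736 ± 0.109 percentage points and below MOL by −0.286 ± 0.166 points (SD, n = 8). Both held in 8 of 8 libraries, with an exact p of 0.00781 and an adjusted p of 0.0104 each. The gap to MOL was widest in the male Ip3r2 WT library (−0.549 points), where only 19 MFOL were measured, and narrowest in the male Ip3r2 KO library (−0.0859 points). MFOL lay below all 16 other classes in every library. Among all class pairs 73.5% kept the same sign in 8 of 8 libraries, and MFOL was the only class at the bottom of every library. By nucleus, the MFOL member of a random pair had the higher mitochondrial share in 14.9% of pairs with NFOL and 31.4% of pairs with MOL.

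**Figure D4:**
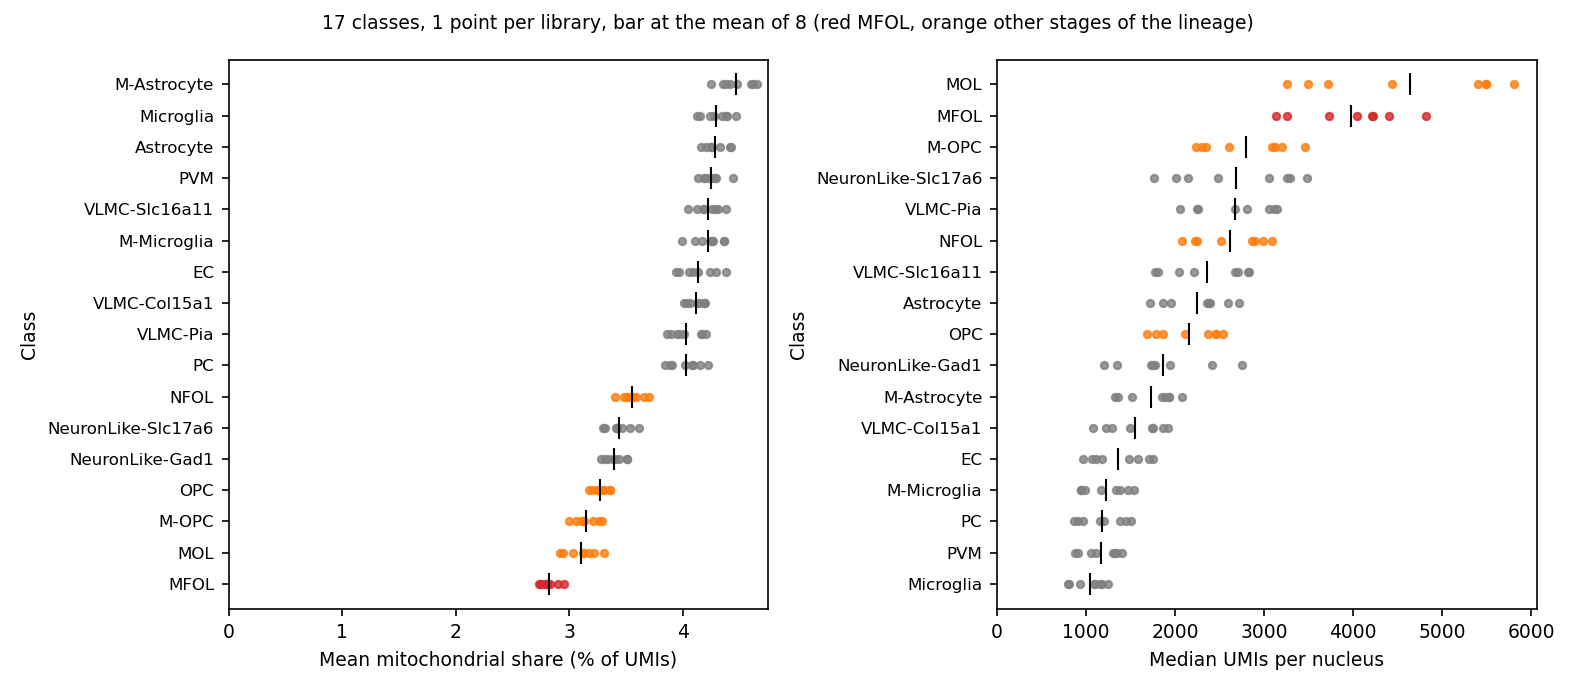
Mean mitochondrial share (left) and median UMIs per nucleus (right) for each of 17 classes, with 1 point per library and a bar at the mean of 8, MFOL in red and the other stages of the lineage in orange. MFOL has the lowest mitochondrial share (mean 2.82%) and the second-highest UMIs, after MOL.

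Low mitochondrial share and high UMI content went together only in part over the lineage. From NFOL to MFOL UMIs rose and the share fell. NFOL, however, had more UMIs than OPC (means of library medians 2612 and 2160) and also the higher mitochondrial share (3.56% and 3.27%). MOL had the most UMIs, and MFOL the lowest mitochondrial share. Among MFOL nuclei of a library, Spearman's rho between UMIs and mitochondrial share had a median of −0.22 over 8 libraries and ran from −0.42 to 0.074. Both measures share the UMI count, so this is a description only. Detected genes followed UMIs closely, with rho from 0.93 to 0.99.

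Between genotypes none of these measures of MFOL passed the test. UMIs per nucleus differed by 0.031 in log2 (−0.36 to 0.42, adjusted p = 0.959) in VGlut2 cKO and by 0.066 (−0.32 to 0.45, adjusted p = 0.99995) in Ip3r2 KO (limma). Genes per nucleus differed by 0.013 (−0.30 to 0.33) and 0.0060 (−0.31 to 0.32). The mitochondrial share differed by −0.0866 points (−0.321 to 0.148, adjusted p = 0.948) in VGlut2 cKO and by 0.0735 points (−0.161 to 0.308, adjusted p = 0.970) in Ip3r2 KO. Each fit by limma called 0 of 17 classes, and 0 had an unadjusted p under 0.05.

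MFOL lay further below MOL in UMIs in the Ip3r2 libraries, a difference that did not pass adjustment. MFOL held 1.25-fold the UMIs in Ip3r2 libraries compared with VGlut2 libraries, NFOL 1.31-fold and MOL 1.50-fold. The MFOL minus MOL difference in log2 UMIs was −0.33 ± 0.057 in Ip3r2 and −0.072 ± 0.061 in VGlut2 libraries (SD, n = 4 each), and the groups did not overlap. The exact permutation p was 0.0286, the smallest that 4 against 4 can give, and the adjusted p over 8 comparisons was 0.114. This comparison was chosen after the data were seen. The model and the days on which its tissue was handled cannot be told apart. Against NFOL the values were 0.58 ± 0.06 and 0.64 ± 0.09 (exact permutation p = 0.314).

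In the authors' 2-dimensional map of expression (UMAP), MFOL formed a short bridge at the turn between NFOL and MOL. Of the 319 nuclei 303 had only MFOL among their 15 nearest nuclei, 13 had an NFOL neighbour and 3 a MOL neighbour. On this map no nucleus outside the oligodendrocyte lineage was among these neighbours. Neighbours from the same library made up 14.8%, and no value for random mixing was computed beside it. Clusters and map come from the same genes, so these values describe the map and were not tested.

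**Figure D5:**
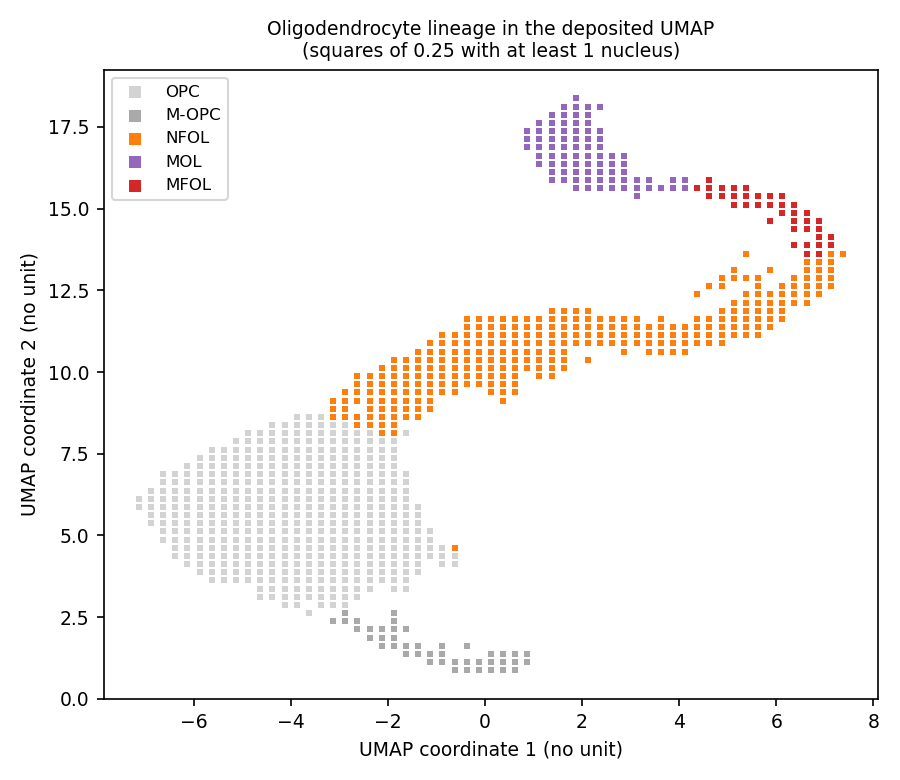
The deposited UMAP of the oligodendrocyte lineage, with each square of 0.25 by 0.25 map units coloured by class where it holds at least 1 nucleus. MFOL (red) joins the end of the NFOL arm (orange) to MOL (purple), with its median at 6.16 and 15.1 on the axes.

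Medians differed along the bridge. When the 319 MFOL were cut into 4 near-equal parts along the first map axis, the 80 nuclei nearest MOL had a median of 4173 UMIs and a mean mitochondrial share of 2.91%. The next parts had 3996.5 and 3900 UMIs, and the 80 nuclei nearest NFOL had 3601 UMIs and a share of 2.77%. All 3 MFOL with a MOL neighbour were in the first of these, and 11 of the 13 with an NFOL neighbour were in the last. The end part nearest MOL was higher than that nearest NFOL in UMIs and in mitochondrial share in 8 of 8 libraries, but it held only 2, 3, 4 and 6 nuclei in 4 of them. Over all MFOL of a library the trend was weak. Spearman's rho of the first map axis, which runs from MOL to NFOL, had a median of −0.14 with UMIs and was 0.11 in the male Ip3r2 KO library. With mitochondrial share its median was −0.11, and it was 0.036 in the female Ip3r2 KO library. Of the 19 MFOL of the male Ip3r2 WT library, 57.9% were in the part nearest NFOL and 10.53% in that nearest MOL. In the female Ip3r2 KO library, which had the most MFOL, these shares were 15.4% and 36.5%.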

How the data were processed

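The input was the authors' table of nuclei, with a class, a library and coordinates for each. By the study's methods, the authors aligned reads with Cell Ranger to mm10, removed barcodes with few genes, removed doublets with Scrublet in each sample, joined the samples by Scanorama and found clusters by the Leiden algorithm. The deposited counts of UMIs and of genes per nucleus are raw, the deposited mitochondrial fraction is of UMIs, and the deposited map coordinates are scores without a unit. No further doublet removal was done.

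Nuclei were tallied by class and library, with 4 astrocyte groups joined, which left 17 classes. Log2 odds of (nuclei + 0.5) were fitted with limma 3.58.1 in R 4.3.3, with 1 mean per group, and p-values were adjusted by Benjamini-Hochberg at 0.05; edgeR 4.0.16 was an alternative. Library medians (UMIs, genes, on log2) and means (mitochondrial share) were fitted likewise. MFOL had 19 nuclei in 1 library, under the minimum of 20 set for these fits, so the fit of all 17 classes, planned as an alternative, is given. Classes of 1 library share its depth. Stages were compared within libraries by exact two-sided sign flips. Genes at a UMI count are a stage's mean residual from 1 line of log2 genes on log2 UMIs over NFOL, MFOL and MOL of a library. The limma fit of shares was tested on simulated tallies, with an MFOL change larger than any difference in share found here. That check does not show whether a change of the size seen here would be called. Each library was a pool of 2 mice, and p-values measure the spread between pools. In limma that spread is drawn from all classes of a fit and not from MFOL alone. Classes were named as MFOL and its neighbouring stages. Members, lists and tests were chosen with earlier results of these data known.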

Additional observations from a re-analysis of the deposited data

Results flagged for a closer look

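Same-sex pairs of libraries differed in opposite directions in the models for the MFOL share of committed oligodendrocytes, though the male VGlut2 pair differed by only −0.059 in log2 odds. The mean mutant minus WT difference was lower in VGlut2 than in Ip3r2 by a log2 odds of −0.60, and both pairs of each model had the same sign. Tested by limma, this difference had an adjusted p of 0.993. MFOL per NFOL and the MFOL share of all nuclei did not show the same split of signs.

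MFOL lay further below MOL in the Ip3r2 libraries than in the VGlut2 libraries, by −0.26 in log2 UMIs and by −0.088 in log2 genes. Each difference had an exact permutation p of 0.0286 with 4 libraries a model, and an adjusted p of 0.114 over 8 comparisons, so neither passed the adjustment. The groups did not overlap in UMIs. In genes they were barely apart, with a highest Ip3r2 value of −0.1411 (male WT library, 19 MFOL) and a lowest VGlut2 value of −0.1405 (male WT library). The levels behind them also moved, with MOL UMIs 1.50-fold and MFOL UMIs 1.25-fold higher in Ip3r2 libraries. Their part in the result was not tested.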

How the results depend on the processing

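Of 253 alternative values of 37 results, 232 kept their direction and their side of the threshold, 16 changed sign, 4 moved and 1 lost its call. The 232 include values that could not change, so the count overstates how steady the results were. Leaving out a VGlut2 library cannot move the Ip3r2 KO minus WT difference, only its p, and the reverse also holds. The mean of log2 values left the genes at a UMI count as they were. Sign flips of 4 pairs cannot pass the threshold under any setting. None of the values that changed sign had passed a test, and the cause was not tested. With the mean of log2 values, MFOL UMIs in Ip3r2 KO minus WT were −0.011. With at least 500 genes, MFOL per NFOL in mutants was −0.0053. The genes at a UMI count, MFOL minus MOL, were −0.026 with matched nuclei (exact p = 0.125). MFOL made up 96.1% of 50 nearest nuclei on the UMAP, and 52.5% of 15 nearest on 2 principal components. On those components 3.05% of the 15 nearest lay outside the oligodendrocyte lineage. The MFOL position from NFOL (0) to MOL (1) was 0.70 on the UMAP, 0.55 on the tSNE and 0.81 on the principal components. The median sideways distance from the line joining NFOL and MOL was 0.77, 0.15 and 0.085 of its length. On the UMAP MFOL thus lay far to the side of that line.

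When libraries were left out in turn, the VGlut2 difference in MFOL share ran from −0.56 to −0.20, the Ip3r2 difference from −0.44 to 0.80, the difference between models from −1.18 to 0.059 and that between WT groups from −1.05 to 0.19. The lineage share ran from −0.68 to −0.045 (VGlut2) and −0.27 to 0.77 (Ip3r2), the female minus male difference from 0.18 to 0.71, and the committed share between models from −1.05 to −0.16. MFOL UMIs ran from −0.15 to 0.21 (VGlut2) and −0.029 to 0.16 (Ip3r2), genes from −0.11 to 0.14 and −0.055 to 0.067, and the Ip3r2 mitochondrial share from −0.0105 to 0.157 points. A library left alone in its group was assumed to vary like the others. The within-library differences from NFOL and MOL kept their calls. The labels give no replicate numbers, so libraries were paired by sex alone, and sex as a term changed no call. With 19 to 52 MFOL a library, shares carry wide Wilson intervals, such as 0.255% to 0.622% in the smallest.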
